A study of Mus musculus with 6 samples.

Results

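The genes that encode the proteins of the cytosolic and the mitochondrial ribosome were followed in 4T1 cells, a mouse mammary carcinoma line, after 4 h with KIRA6. Members were chosen by symbol: names that start with Rpl, Rps, Mrpl or Mrps and a digit, plus Rpsa, Rplp0, Rplp1 and Rplp2, without pseudogene names and without the Rps6k kinases. The rule took 172 of the 56691 genes in the table. Of these, 94 were cytosolic (55 Rpl of the large and 39 Rps of the small subunit) and 78 were mitochondrial (49 Mrpl and 29 Mrps). There were 3 libraries of 4T1 cells given KIRA6 at 1 µmol/L and 3 libraries of 4T1 cells given Vehicle, both for 4 h in fresh medium. KIRA6 inhibits the RNase of IRE1α, a stress sensor of the endoplasmic reticulum, through the kinase domain of that protein. The wider study is on resistance to PD-1 blockade and on suppressive myeloid cells. The labels give 1 cell line and do not state whether replicates are separate cultures. The p-values therefore rest on the variation among these 6 libraries, some or all of which may be technical.

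A cytosolic ribosome translates the messages of the nucleus, and its proteins are made in matched amounts from some of the most abundant mRNAs of a growing cell. Those mRNAs start with a run of pyrimidines (the 5′ terminal oligopyrimidine tract), through which mTOR signalling controls their translation. The mitochondrial ribosome descends from that of bacteria and translates the few proteins encoded in mitochondrial DNA, all of them subunits of oxidative phosphorylation. Its own proteins are encoded in the nucleus, translated in the cytosol and imported. Some descend from bacterial ribosomal proteins, and others were gained in the mitochondrial lineage.

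The promoters of the mitochondrial members that fell with KIRA6 are shown first, because they are the members that passed the test. Each run covers 70 bases before to 30 bases after the gene's start in the RefSeq table for GRCm38.p6, read 5′ to 3′ on the gene's strand, and capitals mark every whole match of a searched motif within the run. Mrps35 is the remaining member of that group.
Mrpl12, chr11:120484567-120484666, plus strand: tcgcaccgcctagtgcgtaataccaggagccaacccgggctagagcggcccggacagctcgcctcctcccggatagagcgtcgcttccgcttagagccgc
Mrpl16, chr19:11770345-11770444, plus strand: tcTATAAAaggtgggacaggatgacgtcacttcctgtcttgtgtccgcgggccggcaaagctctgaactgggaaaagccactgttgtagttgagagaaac
Mrpl37, chr4:107066837-107066936, minus strand: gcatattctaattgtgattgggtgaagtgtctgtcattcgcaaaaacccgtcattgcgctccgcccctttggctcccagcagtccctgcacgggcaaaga
Mrps2, chr2:28467996-28468095, plus strand: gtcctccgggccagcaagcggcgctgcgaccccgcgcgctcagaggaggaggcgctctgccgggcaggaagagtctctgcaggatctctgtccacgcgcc
Mrps18a, chr17:46110934-46111033, plus strand: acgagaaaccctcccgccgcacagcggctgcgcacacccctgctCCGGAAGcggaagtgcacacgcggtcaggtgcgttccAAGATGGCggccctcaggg
Mrps26, chr2:130563687-130563786, plus strand: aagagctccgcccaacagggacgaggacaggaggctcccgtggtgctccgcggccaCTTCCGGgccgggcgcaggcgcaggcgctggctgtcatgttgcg
3 cytosolic promoters follow for comparison: Rplp0 and Rpl41 are among the most abundant members, and Rpl7l1 had the lowest cytosolic fold change.
Rplp0, chr5:115559397-115559496, plus strand: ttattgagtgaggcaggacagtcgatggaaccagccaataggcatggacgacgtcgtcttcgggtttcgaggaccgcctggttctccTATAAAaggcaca
Rpl41, chr10:128549139-128549238, minus strand: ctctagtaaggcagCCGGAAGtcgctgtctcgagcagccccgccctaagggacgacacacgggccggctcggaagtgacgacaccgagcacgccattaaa
Rpl7l1, chr17:46782627-46782726, minus strand: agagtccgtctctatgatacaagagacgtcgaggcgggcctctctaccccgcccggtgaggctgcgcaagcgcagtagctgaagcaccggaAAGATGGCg
The letters searched over the 300-base window of 250 bases before to 50 after each start were CCGGAAG, the core of ETS factor sites such as those of GABPA, AAGATGGC of YY1, the NRF1 motif and the E-box CACGTG, all on both strands. The pyrimidine-rich CTTTCC was searched on the gene's strand alone, as was the core promoter element TATAAA. The ETS and YY1 letters can overlap by 3 bases. CCGGAAG stood in 33.3% of 81 cytosolic windows and 34.7% of 75 mitochondrial windows, against 8.86% of all 32851 windows. AAGATGGC stood in 9.88% of cytosolic, 16% of mitochondrial and 2.75% of all windows. CTTTCC differed more between the families, at 37% of cytosolic windows, 20% of mitochondrial windows and 14.1% of all windows. CACGTG, which MYC and MAX can bind, stood in 9.88% of cytosolic and 9.33% of mitochondrial windows, against 7.15% of all. The NRF1 motif stood in 2.47%, 4% and 0.971% of cytosolic, mitochondrial and all windows, and TATAAA in 8.64%, 5.33% and 8.32%. Of the 6 members shown that fell, 2 (Mrps18a and Mrps26) held CCGGAAG, 2 (Mrps18a and Mrpl37) held AAGATGGC and 1 (Mrpl37) held CACGTG. These matches are a description of the letters only.

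Levels are FPKM, the fragments of a gene per kilobase of exon scaled to the fragments assigned to genes in its library. The KIRA6 libraries held an estimated 18203000 to 21351550 assigned fragments and the Vehicle libraries 16501650 to 18601150. All 8 epithelial and 4T1 marker genes averaged at least 1 FPKM, and their sum was 1662 to 1765 FPKM with KIRA6 and 1421 to 1554 FPKM with Vehicle. Summed fibroblast markers were 1.91 to 3.8 FPKM with KIRA6 and 0.44 to 0.77 FPKM with Vehicle, and 1 of the 6, Pdgfra, averaged at least 1 FPKM. Pdgfra made up most of these sums, with means of 2.75 FPKM with KIRA6 and 0.53 FPKM with Vehicle. The highest of the other fibroblast markers, Col1a1, averaged 0.05 and 0.03 FPKM. Leukocyte markers, of which 2 of 6 were at 0, summed to at most 0.15 FPKM and endothelial markers to at most 0.06 FPKM, and their part in the results was not tested. The test was limma on log2(FPKM + 0.5) of the 11778 genes with a mean of 0.5 FPKM or more, and an adjusted p below 0.05 was called. Fold changes below are KIRA6 over Vehicle on that scale, on which low genes appear to change less than they do. Over all tested genes, KIRA6 replicate 1 held 53.9% of the sum of squared deviations within its group and Vehicle replicate 3 held 60.3%. The counts called and the medians of both ribosomes are given without them as well, but not every result on a single gene or list.

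Relative to Vehicle, most mitochondrial members stood lower with KIRA6 and most cytosolic members stood near 0. None of the 88 tested cytosolic members was called higher or lower, while 7 of the 77 tested mitochondrial members fell and none rose. Among all 11778 tested genes 23.6% were called, 15.6% higher and 7.98% lower. The mitochondrial share called lower, 9.09%, was thus near the share of all genes, and in this fit the count of calls alone does not set the family apart. In bulk RNA, a change in how many cells express a gene and a change in RNA per cell cannot be told apart. The median log2 fold change was −0.18 over the mitochondrial members, 0.05 over the cytosolic members and 0.16 over all tested genes. The mitochondrial median minus the cytosolic one was −0.23, which is a description without a test, and the mitochondrial median was below 0 and below the median of all genes in every one of the 21 alternative fits. The sign of the cytosolic median was not stable: it was −0.18 under median-ratio scaling between libraries, which moved the median of all genes to −0.04, and −0.22 without Vehicle replicate 3 and KIRA6 replicate 1. At an unadjusted limma p below 0.05, 0 of the 88 cytosolic members were higher and 2 lower. Of the 77 mitochondrial members, 0 were higher and 16 lower. Of all 11778 tested genes, 2901 were higher and 1511 (12.8%) lower at that level, 37.5% in either direction. With limma-voom on estimated fragments, the counts called were again 0 and 0 for the cytosolic and 0 and 7 for the mitochondrial members.

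The tested cytosolic set held 52 Rpl and 36 Rps genes, with medians of 0.05 each, and the tested mitochondrial set held 48 Mrpl and 29 Mrps genes, with medians of −0.15 and −0.30. The fold changes from the 25th to the 75th percentile ran between −0.46 and −0.01 in the mitochondrial and between −0.02 and 0.14 in the cytosolic set. A log2 fold change below 0 was found for 58 mitochondrial members (75.3%) and 25 cytosolic members (28.4%), against 37.8% of all tested genes. The median standard error was 0.20 for the mitochondrial members, 0.22 for the cytosolic members and 0.20 for all genes. For 85 of the 88 cytosolic members the 95% interval lay within a 2-fold change in either direction.

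**Figure D1:**
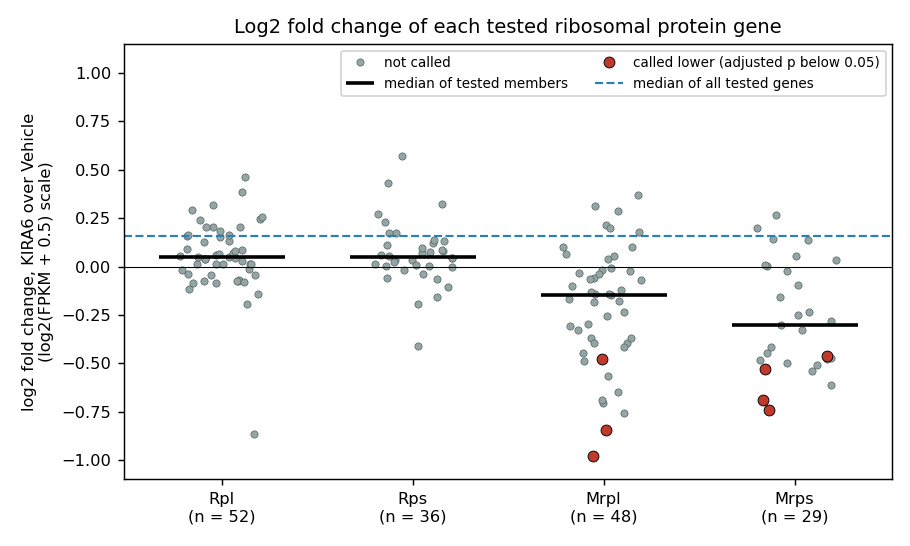
Log2 fold change (KIRA6 over Vehicle, log2(FPKM + 0.5) scale) of each tested member, by family. Large red points are the 7 members called lower, black bars the family medians and the dashed line the median of all tested genes at 0.16. The Rpl and Rps points centre at 0.05, the Mrpl points at −0.15 and the Mrps points at −0.30; the Rpl and Rps medians changed sign with the scaling between libraries and the Mrpl and Mrps points lay mostly below 0.

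The difference between the ribosomes could be read within each library, where no scaling between libraries enters. The median log2(FPKM + 0.5) of the mitochondrial members minus that of the cytosolic members was −4.66, −4.73 and −4.57 in the KIRA6 libraries and −4.43, −4.36 and −4.33 in the Vehicle libraries. Every KIRA6 library was therefore below every Vehicle library, with a difference of −0.28 between group means (SD 0.08 and 0.06, n = 3 each). Mitochondrial members took 0.464%, 0.400% and 0.332% of assigned fragments with KIRA6 and 0.536%, 0.517% and 0.398% with Vehicle, and the groups overlapped. Cytosolic members took 12.2%, 10.4% and 8.22% with KIRA6 and 11.1%, 10.3% and 7.91% with Vehicle, which also overlapped. Their median FPKM was 541, 507 and 390 with KIRA6, against 509, 471 and 377 with Vehicle. The mitochondrial median FPKM was 20.97, 18.6 and 15.87 with KIRA6, against 23.1, 22.5 and 18.3 with Vehicle. Transcripts encoded in mitochondrial DNA, which the mitochondrial ribosome translates, took 2.66% to 3.25% of fragments with KIRA6 and 1.75% to 2.03% with Vehicle; their part in the difference was not tested.

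**Figure D2:**
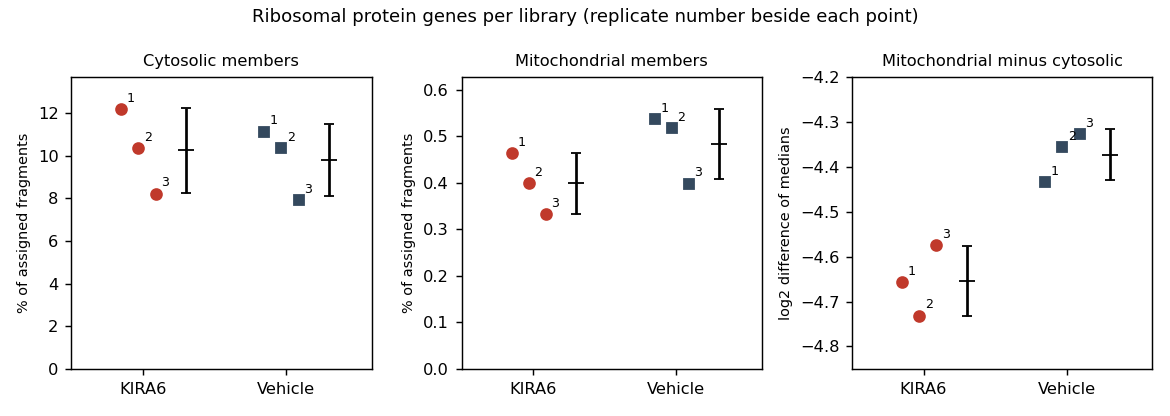
Share of assigned fragments (percent) taken by the cytosolic and by the mitochondrial members in each library, and the mitochondrial minus the cytosolic median log2(FPKM + 0.5), with group mean and SD (n = 3 each). The shares of the groups overlap in both sets, while the within-library difference is −4.73 to −4.57 with KIRA6 and −4.43 to −4.33 with Vehicle.

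Both ribosomes shared a pattern between the libraries of a group. Replicate 3 was the lowest of the 3 KIRA6 libraries for 86 of 88 cytosolic and 73 of 77 mitochondrial members. In the Vehicle group, too, replicate 3 was lowest for most members, 81 of 88 and 67 of 77. Replicate 1 was the highest KIRA6 library for 69 cytosolic and 65 mitochondrial members, and the highest Vehicle library for 79 and 55. The median deviation of the cytosolic members from their group mean was 0.26, 0.07 and −0.31 in the KIRA6 libraries and 0.21, 0.08 and −0.27 in the Vehicle libraries on the log2 scale. That spread exceeded the median cytosolic fold change of 0.05. The mitochondrial members deviated by 0.23, 0.02 and −0.28 with KIRA6 and by 0.16, 0.12 and −0.30 with Vehicle. The SD of the mitochondrial median between libraries of a group, pooled over groups, was 0.19, against a median fold change of −0.18. For the within-library difference of medians that SD was 0.07. Members that move together between libraries are not independent of each other.

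**Figure D3:**
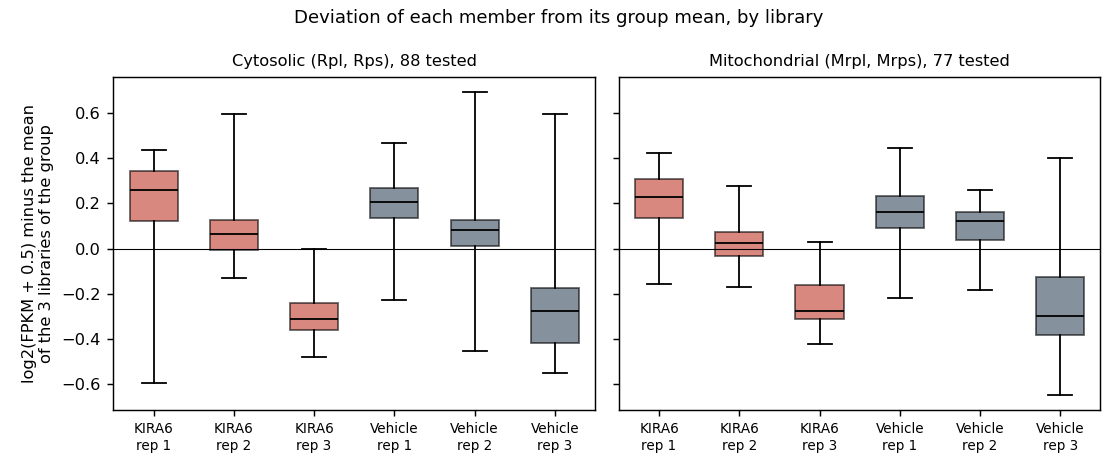
Deviation of each tested member from the mean of its group, log2(FPKM + 0.5), in each library. Boxes run from the 25th to the 75th percentile of the members with the median as a line, and whiskers run from the lowest to the highest member. Replicate 3 of both groups lies lowest for both ribosomes, with cytosolic medians of −0.31 with KIRA6 and −0.27 with Vehicle.

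Among the mitochondrial members, the stalk of the large subunit recruits translation factors and is built from Mrpl12 on the base formed by Mrpl10 and Mrpl11. Mrpl12 fell with KIRA6, and its fold change was the furthest below 0 among all members. It had 93.81, 85.64 and 60.25 FPKM in the KIRA6 libraries, against 167.02, 164.74 and 135.83 FPKM in the Vehicle libraries, so the groups did not overlap. The means were 79.9 ± 17.5 FPKM with KIRA6 and 155.9 ± 17.4 FPKM with Vehicle (SD, n = 3 each), or 48.7% lower. The log2 fold change was −0.98 ± 0.20 (SE; limma adjusted p = 0.0164). Mrpl12 lies on chromosome 11 from 120375439 to 120379891 on the plus strand of GRCm39. Its partners in the stalk were not called: Mrpl10 averaged 34.9 ± 1.98 FPKM with KIRA6 and 33.3 ± 1.46 FPKM with Vehicle, and Mrpl11 averaged 24.2 ± 5.07 FPKM with KIRA6 and 27.5 ± 5.12 FPKM with Vehicle.

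Mrpl16, a homolog of a bacterial large-subunit protein, fell as well. It had 9.64, 9.04 and 7.66 FPKM with KIRA6 and 15.58, 17.14 and 15.67 FPKM with Vehicle. The group means were 8.78 ± 1.02 FPKM with KIRA6 and 16.1 ± 0.876 FPKM with Vehicle, and the log2 fold change was −0.85 ± 0.14 (limma adjusted p = 0.00741). It was the member with the lowest adjusted p and the only one of the 7 called in all 21 alternative fits. Mrpl37, a large-subunit protein of the mitochondrial lineage, had 16.88, 15.14 and 14.75 FPKM with KIRA6 and 21.64, 22.48 and 21.46 FPKM with Vehicle. Its log2 fold change of −0.48 ± 0.12 (limma adjusted p = 0.0317) was among the smallest of the 7, with little spread within groups. On GRCm39, Mrpl16 lies on chromosome 19 from 11747755 to 11752324 on the plus strand, and Mrpl37 on chromosome 4 from 106913071 to 106924065 on the minus strand.

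The 4 Mrps members that fell were Mrps18a, Mrps26, Mrps2 and Mrps35. Mrps18a is 1 of 3 relatives of a bacterial small-subunit protein and, despite its name, sits in the large mitochondrial subunit. It had 9.69, 9.33 and 6.66 FPKM with KIRA6 and 14.83, 14.22 and 14.41 FPKM with Vehicle, a log2 fold change of −0.74 ± 0.17 (limma adjusted p = 0.0225). Its relatives stood on either side of 0: Mrps18b, with 18.3 ± 2.11 FPKM with KIRA6 and 25.5 ± 2.40 FPKM with Vehicle, just missed the threshold (limma adjusted p = 0.0597), and Mrps18c averaged 44.7 ± 8.19 FPKM with KIRA6 and 41.1 ± 10.9 FPKM with Vehicle (log2 fold change 0.14 ± 0.25). Mrps26, a small-subunit protein of the mitochondrial lineage, had 11.06, 9.75 and 8.67 FPKM with KIRA6 and 17.09, 17.01 and 14.38 FPKM with Vehicle (log2 fold change −0.69 ± 0.15, limma adjusted p = 0.0186). Mrps2, a homolog of a bacterial small-subunit protein, had 12.45, 13.71 and 13.5 FPKM with KIRA6 and 17.97, 17.92 and 22.2 FPKM with Vehicle. It was the 1 of the 7 whose highest Vehicle value came from replicate 3, and its log2 fold change was −0.53 ± 0.14 (limma adjusted p = 0.0361). Mrps35, of the mitochondrial lineage, had 6.28, 6.05 and 5.29 FPKM with KIRA6 and 8.83, 8.15 and 7.83 FPKM with Vehicle. Its log2 fold change of −0.46 ± 0.14 lay at the threshold (limma adjusted p = 0.0499). In all 7 the groups did not overlap, which held for 11 of the 77 mitochondrial members (14.3%) against 14.1% of all tested genes.

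On GRCm39, Mrps18a lies on chromosome 17 from 46421912 to 46439836, Mrps26 on chromosome 2 from 130405662 to 130410615, Mrps2 on chromosome 2 from 28358078 to 28361190 and Mrps35 on chromosome 6 from 146944262 to 146975489, all on the plus strand. The 7 values rest on an estimated 482 fragments at the fewest, for Mrpl16 in KIRA6 replicate 3, and 4657 at the most, for Mrpl12 in Vehicle replicate 1. Just outside the threshold were Mrpl19 (limma adjusted p = 0.0520) and Mrps6 (0.0526), with log2 fold changes of −0.71 ± 0.21 and −0.45 ± 0.13. Mrpl20 (0.0648) and Mrpl3 (0.0667) followed, at −0.69 ± 0.22 and −0.76 ± 0.24. The count of 7 depended on single libraries. It was 1 (1.30%) without KIRA6 replicate 2, Vehicle replicate 1 or Vehicle replicate 2, where 3.30%, 4.39% and 3.42% of all genes were lower. It was 3 (3.90%, against 4.39% of all genes) without KIRA6 replicate 3. Without KIRA6 replicate 1 it was 7 (9.09%, against 6.51% of all genes), and 5 of the 7 reported members were kept. It was 23 (29.9%, against 11.2% of all genes) without Vehicle replicate 3. Without Vehicle replicate 3 and KIRA6 replicate 1 together it was 48 (62.3%, against 20.1% of all genes), and under median-ratio scaling it was 14 (18.2%, against 13.2% of all genes). Vehicle replicate 3 was the lowest Vehicle library for 67 of the 77 members, and KIRA6 replicate 1 the highest KIRA6 library for 65. Leaving these libraries out therefore lowers the fold changes of most members by construction. The counts of 23 and 48 are thus no separate support.

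**Figure D4:**
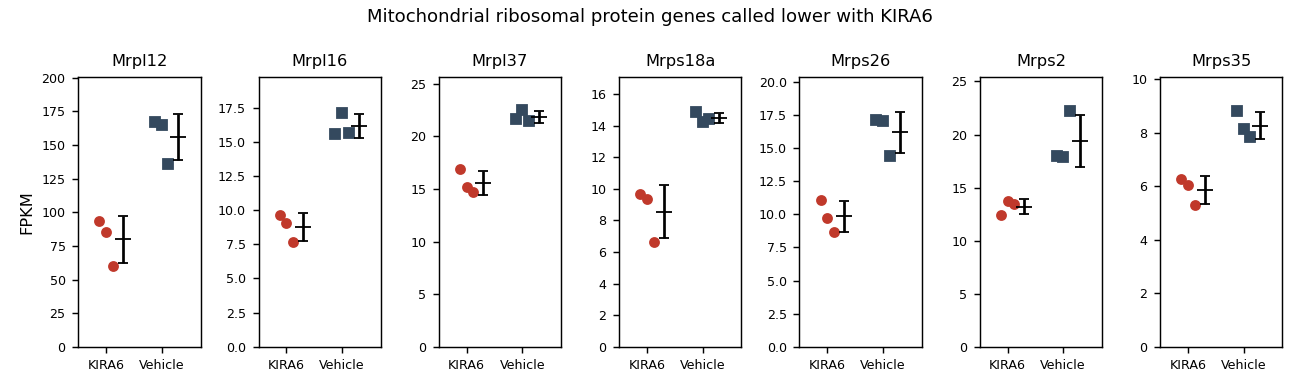
FPKM of the 7 mitochondrial members called lower, per library, with group mean and SD (n = 3 each). In every panel the 3 KIRA6 libraries lie below the 3 Vehicle libraries; Mrpl12 averages 79.9 FPKM with KIRA6 and 155.9 FPKM with Vehicle.

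A log2 fold change above 0 was found for 19 of the 77 mitochondrial members, none of them called, with the highest for Mrpl33 (0.37 ± 0.22), Mrpl23 (0.31 ± 0.17) and Mrpl14 (0.29 ± 0.17). In 3 mitochondrial members every KIRA6 library was above every Vehicle library, where this held for 27.7% of all tested genes. Mrps21, a homolog of a bacterial small-subunit protein and one of the most abundant mitochondrial members, had 102.68, 104.96 and 90.27 FPKM with KIRA6 and 83.33, 81.36 and 81.92 FPKM with Vehicle. Its log2 fold change of 0.27 ± 0.13 was not called (limma adjusted p = 0.173). Mrpl4 averaged 19.8 ± 1.85 FPKM with KIRA6 and 17.4 ± 0.267 FPKM with Vehicle, and Mrpl51 averaged 15.8 ± 1.16 FPKM with KIRA6 and 13.7 ± 0.333 FPKM with Vehicle; these 2, like Mrpl33, Mrpl23 and Mrpl14, were named after their values were seen. The other abundant mitochondrial members, Mrpl18 and Mrpl28 of the large and Mrps6 and Mrps18c of the small subunit, were not called.

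Members with a second role were described as a group of 6. Mrpl58 releases peptides from stalled mitochondrial ribosomes, Mrpl45 lies at the exit tunnel facing the inner membrane, and Mrpl44 resembles an RNase. Mrps27 is an RNA-binding protein of the small subunit, Mrps30 sits in the large subunit despite its name, and Mrps36 belongs to the 2-oxoglutarate dehydrogenase complex rather than to the ribosome. None of the 6 was called by limma or limma-voom, and 1 (Mrps30) was lower at an unadjusted p below 0.05. Mrps30 had 5.79, 4.79 and 4.21 FPKM with KIRA6 and 7.88, 7.93 and 5.47 FPKM with Vehicle, which overlapped because KIRA6 replicate 1 lay above Vehicle replicate 3 (limma adjusted p = 0.131). Mrps27 averaged 18.1 ± 5.17 FPKM with KIRA6 and 25.4 ± 4.61 FPKM with Vehicle (log2 fold change −0.50 ± 0.24). Mrps36 averaged 21.8 ± 2.94 FPKM with KIRA6 and 19.0 ± 3.66 FPKM with Vehicle (0.20 ± 0.19), while Mrpl45 and Mrpl58 lay at −0.02 and −0.04.

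Members were also read by descent, without a test of the difference. Of 44 members numbered as homologs of bacterial proteins 4 were called lower, and of 33 tested members of the mitochondrial lineage 3 were. That is 9.09% in both, near the 7.98% of all tested genes. Their median log2 fold changes were −0.18 and −0.23. At an unadjusted p below 0.05, 12 of the 44 homologs and 4 of the 33 others were lower, against 12.8% of all tested genes. Every KIRA6 library was below every Vehicle library in 8 homologs (18.2%) and 3 others (9.09%). The share of all tested genes, 14.1%, lay between these. Across the 77 mitochondrial genes, Spearman's rho between log2 fold change and exonic length was −0.27, and with mean FPKM it was 0.13; across the 88 cytosolic genes the values were −0.10 and 0.13. Genes are not independent replicates, and these are descriptions. The families differ in both measures, with a median exonic length of 2533 bases and a median level of 20.1 FPKM for mitochondrial members, against 1730 bases and 467 FPKM for cytosolic members.

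Among the cytosolic members the highest level was that of Rplp1, a protein of the stalk that recruits elongation factors to the large subunit. It had 4455, 4119 and 3075 FPKM with KIRA6 and 3765, 3407 and 2988 FPKM with Vehicle. Rplp0, the base of the stalk, had 2033, 2020 and 1628 FPKM with KIRA6 and 1639, 1553 and 1360 FPKM with Vehicle, and Rplp2 averaged 193 ± 43.8 FPKM with KIRA6 and 155 ± 17.7 FPKM with Vehicle. All 3 had log2 fold changes above 0, at 0.19 ± 0.19, 0.32 ± 0.16 and 0.29 ± 0.20, none was called, and the groups overlapped in each. Next in level came Rps15 of the small subunit and Rpl41, the shortest ribosomal protein. Rps15 averaged 3187 ± 417 FPKM with KIRA6 and 3233 ± 500.5 FPKM with Vehicle, and Rpl41 averaged 2575 ± 625 FPKM with KIRA6 and 2508 ± 291 FPKM with Vehicle. Rpsa, the laminin receptor precursor of the small subunit, and Rpl19 of the large had log2 fold changes of 0.01 ± 0.24 and 0.01 ± 0.26, and Rps3a1 had 0.05 ± 0.23.

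When ribosome assembly fails, free ribosomal proteins such as Rpl5 and Rpl11 bind MDM2 and stabilise p53. None of the 15 tested members of that list was called by limma or limma-voom or had an unadjusted p below 0.05, and their median log2 fold change was −0.04, against 0.16 over all genes. Rpl5 averaged 452 ± 91.6 FPKM with KIRA6 and 433 ± 116 FPKM with Vehicle, and Rpl11 averaged 376 ± 101 FPKM with KIRA6 and 426 ± 82.7 FPKM with Vehicle. Rpl23, Rpl26 and Rpl37 of the list lay at 0.25, −0.07 and 0.01. Rps20 had the highest fold change of the list, with 203.14, 221.82 and 148.68 FPKM with KIRA6 and 165.14, 140.37 and 117.67 FPKM with Vehicle (log2 fold change 0.43 ± 0.21, limma adjusted p = 0.185). Rps27a, which is made as a fusion with ubiquitin, averaged 696 ± 153 FPKM with KIRA6 and 731 ± 178 FPKM with Vehicle. The 21 tested members whose mutation causes Diamond-Blackfan anaemia, an inherited failure of red cell production, held no call by limma or limma-voom and none at an unadjusted p below 0.05, with a median of 0.04, and share members such as Rpl5 and Rpl11 with the list before. Rps28, among them, had the highest fold change of all cytosolic members and a wide spread, with 72.76, 166.57 and 110.14 FPKM with KIRA6 and 66.88, 53.81 and 112.19 FPKM with Vehicle (0.57 ± 0.38).

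Paralogs of ribosomal proteins offered a ratio within each library. Rpl7l1, a relative of Rpl7 found in precursors of the large subunit in human cells, had 60.98, 42.58 and 38.94 FPKM with KIRA6 and 102.51, 101.87 and 59.51 FPKM with Vehicle. The groups overlapped because KIRA6 replicate 1 lay above Vehicle replicate 3, and the log2 fold change of −0.87 ± 0.27 was the lowest cytosolic one but was not called (limma adjusted p = 0.0628). It was called lower without Vehicle replicate 3 (−1.12, limma adjusted p = 0.0116), without KIRA6 replicate 1 (−1.06, limma adjusted p = 0.0454) and under median-ratio scaling (−1.09, limma adjusted p = 0.0336), as well as after rescaling to TPM or a GC and length correction. Without any 1 of the other 4 libraries it was not called, with limma adjusted p between 0.171 and 0.192. As a percentage of Rpl7 it stood at 4.40%, 3.75% and 4.74% with KIRA6 and 7.62%, 8.43% and 7.72% with Vehicle, which did not overlap. The log2 ratio differed by −0.89 in a two-sided exact permutation test with p = 0.1, the smallest that 3 against 3 libraries allow, and 0.4 after Benjamini-Hochberg adjustment over the 4 ratios compared. Rpl7 itself averaged 1115 ± 283 FPKM with KIRA6 and 1108 ± 300.2 FPKM with Vehicle.

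The other 3 ratios overlapped between groups. Rpl22l1, which can take the place of Rpl22, stood at 23.1%, 31.1% and 31.1% of Rpl22 with KIRA6 and 23.8%, 22.3% and 26.2% with Vehicle (exact permutation p = 0.3). Rps27l, a p53 target, stood at 51.4%, 54.8% and 55.7% of Rps27 with KIRA6 and 64.4%, 65.9% and 51.4% with Vehicle (exact permutation p = 0.3). Rpl36al stood at 42.1 ± 5.54% of Rpl36a with KIRA6 and 47.9 ± 7.61% with Vehicle (exact permutation p = 0.4). The adjusted p was 0.4 for these 3 ratios as well. Over the 6 libraries, the members whose log2(FPKM + 0.5) followed Rps27l most closely were Mrpl13, Rpl27 and Rpl7a, with Pearson's r of 0.991, 0.978 and 0.971. Those closest to Rpl22l1 were Rpl23, Rps21 and Rps20, at 0.946, 0.942 and 0.937. Most members share the between-library pattern described above, and these values are no sign of a particular relation.

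Of the 172 members 165 were tested and 7 were too low. Rpl10l, Rps4l and Rps12l1 were at 0 in all 6 libraries, and Rpl3l and Rpl39l had at most 1 estimated fragment in any library. These 5 were thus at or under 3 fragments, the limit that a count of 0 allows, which covers counting error only. Rps23rg1 had 7 to 18 and Mrpl53 0 to 10 estimated fragments per library. The symbol rule also caught Rps19bp1, a regulator of SIRT1 that binds Rps19 and is no ribosomal protein. It had 18.12, 16.63 and 15.54 FPKM with KIRA6 and 23.28, 23.62 and 20.42 FPKM with Vehicle and was, with Rpl7l1, 1 of the 2 cytosolic members at an unadjusted p below 0.05 (limma adjusted p = 0.0648). It was the 1 of 88 tested cytosolic members with every KIRA6 library below every Vehicle library, which held for 14.1% of all tested genes. Rpl28 was the 1 with every KIRA6 library above, which held for 27.7% of all tested genes. Without Rps19bp1 and 8 gene copies, 81 cytosolic members were tested, none was called, and the median log2 fold change was again 0.05.

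Processed copies limit what a cytosolic level means. The table listed 328 pseudogenes with names of the 4 families, of which 321 belonged to 64 cytosolic and 6 to 4 mitochondrial members and 1 to no member, and 179 were above 0 in a library. Their estimated fragments came to 8.73% to 9.61% of those of the cytosolic members and to 0.147% to 0.230% of those of the mitochondrial members. For some genes the copy held most of the signal: Rps2 averaged 145 ± 41.7 FPKM with KIRA6 and 154 ± 31.4 FPKM with Vehicle, while its 12 pseudogenes summed to 4411 ± 1173 FPKM with KIRA6 and 4558 ± 852 FPKM with Vehicle. Levels of Rps2, Rps18, Rps10 and Rpl21 are therefore uncertain. In that order their log2 fold changes were −0.10, 0.12, 0.0014 and −0.09, and the log2 ratios of fragments summed with those of the pseudogenes were −0.06, 0.12, 0.07 and 0.02. Whether the counting used strand is not given in the sources used here, so reads from overlapping genes on opposite strands may not have been told apart.

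Genes that act beside the members were read from lists. Of 22 other genes with a terminal oligopyrimidine tract, such as elongation factors and Fau, which encodes a ribosomal protein fused to a ubiquitin-like one, none was called by limma or limma-voom or at an unadjusted p below 0.05, and the median log2 fold change was 0.01. Of 38 genes of mitochondrial translation and ribosome assembly, 1 rose and 1 fell by limma, with a median of −0.10. Both counts are below the share of all tested genes called in that direction. At an unadjusted p below 0.05, 8 of the 38 were lower and 1 was higher, where 12.8% of all genes were lower and 2901 of the 11778 were higher. In 9 (23.7%) every KIRA6 library was below every Vehicle library, against 14.1% of all genes. In 5 every KIRA6 library was above, where this held for 27.7% of all genes. Tfb1m, which methylates the small-subunit RNA, averaged 3.96 ± 0.647 FPKM with KIRA6 and 2.19 ± 0.471 FPKM with Vehicle (0.73 ± 0.19, limma adjusted p = 0.0353). Gfm1, a mitochondrial elongation factor, averaged 23.3 ± 2.56 FPKM with KIRA6 and 33.6 ± 3.39 FPKM with Vehicle (−0.52 ± 0.14, limma adjusted p = 0.0423). That list also holds 5 proteins of the mitochondrial ribosome whose symbols the rule does not catch. Gadd45gip1, Chchd1, Dap3 and Ptcd3 lay at −0.31, −0.34, −0.26 and −0.44 and Aurkaip1 at −0.01, and none was called.

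The list of regulators held the network of MYC and MAX, mTOR signalling and the p53 pathway, not only regulators of ribosomal protein genes. Of its 25 tested genes, 4 rose and 1 fell, near the 15.6% higher and 7.98% lower of all tested genes. Those that rose were the MYC antagonists Mxd4, Mxd1 and Mxi1 and the cell cycle inhibitor Cdkn1a. Mxd4 had 9.40, 7.63 and 7.77 FPKM with KIRA6 and 0.63, 0.84 and 0.55 FPKM with Vehicle (log2 fold change 2.90 ± 0.17, limma adjusted p = 0.000433). Mxd1 averaged 1.497 ± 0.127 FPKM with KIRA6 and 0.187 ± 0.0493 FPKM with Vehicle (1.54 ± 0.15, limma adjusted p = 0.00137), and Mxi1 averaged 7.57 ± 0.534 FPKM with KIRA6 and 4.12 ± 0.233 FPKM with Vehicle (0.80 ± 0.13, limma adjusted p = 0.00752). Cdkn1a averaged 3.23 ± 0.204 FPKM with KIRA6 and 1.64 ± 0.0889 FPKM with Vehicle (0.80 ± 0.14, limma adjusted p = 0.00819). Max, the partner of MYC and of its antagonists, fell, with 20.7 ± 1.45 FPKM with KIRA6 and 32.7 ± 0.835 FPKM with Vehicle (−0.65 ± 0.12, limma adjusted p = 0.0112). Myc had 12.79, 23.01 and 21.79 FPKM with KIRA6 and 30.51, 34.18 and 97.6 FPKM with Vehicle. Its groups did not overlap, Vehicle replicate 3 lay far above the other Vehicle libraries, and it was not called (limma adjusted p = 0.0909).

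**Figure D5:**
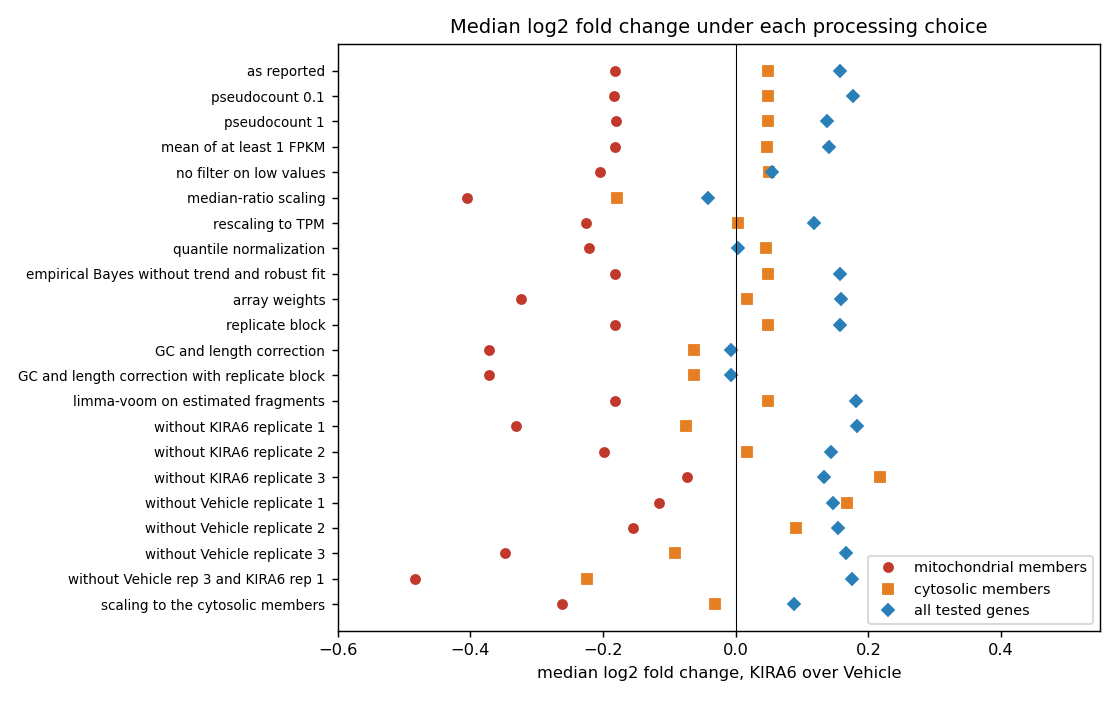
Median log2 fold change (KIRA6 over Vehicle) of the mitochondrial members, the cytosolic members and all tested genes under the reported fit and 21 alternatives. The mitochondrial median stays below the cytosolic one in all of them, with differences of −0.34 to −0.22; the cytosolic median lies on either side of 0, at −0.22 to 0.22, depending on the scaling and on which library is left out.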

How the data were processed

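RNA of 4T1 cells was measured in 3 KIRA6 and 3 Vehicle libraries, stranded by dUTP and made from poly(A) RNA, per the labels' protocols. Per the submitters' processing notes, the build was GRCm39 and the tools were HISAT2 2.2.1, cutadapt 1.9.1, DESeq2 1.34.0 and HTSeq 0.6.1, with no settings given. The authors deposited FPKM per gene and library with 2 decimals, beside exonic lengths and coordinates.

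Fragments per library were recovered from the steps between low FPKM values, since 1 fragment is worth the same in FPKM times length: 100% of 775 to 961 values checked per library came within 0.1 fragment of a whole number. The fit used limma 3.58.1 (R 4.3.3) on log2(FPKM + 0.5), with treatment as the single term, trended and robust empirical Bayes and two-sided tests, on the 11778 genes averaging at least 0.5 FPKM, with Benjamini-Hochberg adjustment over all of them. Errors are SD over 3 libraries for FPKM and limma's standard error for log2 fold changes. Paralog ratios were tested with exact permutation tests in Python 3.11.15. The script was tested on simulated data. The members, lists, tests and alternatives were chosen with earlier results of these data known. Named members are, per family, up to 4 called in each direction and the 3 of highest mean, plus the lists of stalk, p53-binding, paralog, ubiquitin-fusion and second-role members, and up to 3 called genes per direction of each neighbouring list. Rps28, Rpl28, Rps19bp1, Cdkn1a, Myc, members just outside the threshold and the mitochondrial ribosomal proteins outside the rule were added after their values were seen. Promoter sequences are RefSeq's for GRCm38.p6, matched by symbol for 69 cytosolic and 69 mitochondrial members. No coordinate was moved between builds.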

Additional observations from a re-analysis of the deposited data

How the results depend on the processing

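The mitochondrial minus cytosolic difference of medians (−0.23) kept its sign under all 21 alternatives, at −0.34 with array weights, −0.31 with a GC and length correction with or without the replicate block, and no nearer to 0 than −0.22. The mitochondrial median moved to −0.41 under median-ratio scaling, to −0.37 with the GC and length correction with or without the block, and to −0.48 without Vehicle replicate 3 and KIRA6 replicate 1 together, where the cytosolic median was −0.22. For most members those 2 libraries were the lowest Vehicle and the highest KIRA6 library, so leaving them out lowers both medians by construction. Mitochondrial members called lower were 14 under median-ratio scaling (18.2%, against 13.2% of all genes), 13 after rescaling to TPM (16.9%, against 9.06%), 17 with the GC and length correction (22.1%, against 14.3%), 4 with no filter on low values (5.13%, against 3.18%), 15 (19.5%, against 6.82%) after scaling to the cytosolic members (an alternative chosen after seeing the data, with 1701 genes called and 1 cytosolic member lower) and 48 (62.3%, against 20.1%) without the 2 libraries together. Leaving out 1 library gave 1 to 23 (1.30% to 29.9%, where 3.30% to 11.2% of all genes were lower). These fits called 1174 to 3423 genes, with 0 to 2 cytosolic members lower. Cytosolic members called lower were 2 under median-ratio scaling, TPM and the GC and length correction, and without the 2 libraries together 10 were lower and 2 higher, of 6592 genes called. Array weights did not converge and called 10003 genes, with 26 cytosolic members higher and 18 lower and 14 mitochondrial members higher and 53 lower (68.8%, against 33.6% of all genes); there Mrpl28 (0.20), Rpl19 (−0.16), Rpl26 (0.16) and Rpsa (−0.20) were called against their reported sign. The cause of these changes was not tested. Under median-ratio scaling 44.0% of all calls were higher, against 66.2% as reported. Mrpl16 was called in all 21 alternatives, Mrpl12 and Mrps18a in 18, Mrps26 in 17, Mrpl37 in 14, Mrps2 in 13 and Mrps35 in 12. For the 52 named members and the 4 paralog ratios, 961 of the other values did not change their call or move beyond their error. Of the rest, 64 became called, 34 lost their call, 53 moved beyond their error and 4 were called against their reported sign. Uncalled values changed sign in 136 cases, which are not counted among the 4.

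Same-numbered libraries were alike for numbers 1 and 3 but not for number 2. This could not decide whether replicate numbers pair the samples. Deviations from a group mean cancel out within the group, so the correlations depend on each other. The correlation of deviations between same-numbered KIRA6 and Vehicle libraries was 0.762 for number 1, −0.470 for number 2 and 0.738 for number 3, and KIRA6 replicates 2 and 3 correlated best with Vehicle replicate 3. With the replicate block, 4423 genes were called, with 2 cytosolic members higher and 2 lower and 24 mitochondrial members lower (31.2%, against 13.1% of all genes); Rpl7l1 was then called as well (limma adjusted p = 0.00382). With the GC and length correction and the replicate block, 4817 genes were called, with 5 cytosolic and 37 mitochondrial members lower (48.1%, against 21.7% of all genes).

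Precision is limited by 3 libraries a group. The median standard error of 0.20 to 0.22 on the log2 scale limits which changes of single members can be called, and the shared pattern between libraries means that members count as few independent observations. Pseudogene copies leave cytosolic levels uncertain, and the strand setting of the counting is not given in the sources used here.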
